A study of Mus musculus with 10 samples.

Results

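The metabotropic glutamate receptors described here are Grm2, Grm3, Grm4, Grm5, Grm7 and Grm8, chosen by gene name from the deposited table of 52636 genes. All 6 were found, each as 1 record, and all 6 passed the filter on low values (a mean of at least 0.5 FPKM over the libraries), as 6 of 15471 genes tested. Messenger RNA had been sequenced, as part of work on spatial memory, from the hippocampus of Tshr-/- mice, which lack the receptor for thyroid-stimulating hormone, and of wild-type (WT) mice. Both groups were of strain C57BL/6 and 3 months old, with 5 biological replicates each. How the Tshr allele was made, whether a replicate is a single mouse and whether the mutants were given thyroid hormone are not given in the sources used here. P-values therefore measure the spread between these libraries.

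Metabotropic glutamate receptors are G protein-coupled receptors of class C that sense glutamate through a large extracellular domain and act as dimers. Group I, here Grm5, couples to Gq and phospholipase C, sits mostly beside the postsynaptic density and drives a form of long-term depression that needs new protein synthesis. Group II (Grm2 and Grm3) and group III (Grm4, Grm7 and Grm8) couple to Gi/o proteins, lower cyclic AMP and, at many terminals, hold back transmitter release. In the hippocampus Grm5 is abundant on pyramidal and granule cells, Grm2 is known from dentate granule cells and their mossy fibres, Grm3 from astrocytes and granule cells, and Grm7 from the release sites of many terminals.

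None of the 6 receptors differed between Tshr-/- and WT hippocampus past the threshold (limma with Benjamini-Hochberg adjusted p below 0.05, over all 15471 genes). The background is low too, with 2 genes called in the whole table, or 0.0129% of those tested. At an unadjusted p below 0.05, the count was 0 of 6 receptors, against 13.0% of all tested genes. That count was 1 or 2 in 9 of 27 alternatives, with Grm8 in 8 of them. In 0 of 6 did the libraries of the genotypes fail to overlap, against 2.68% of all tested genes. The receptors fell into a pair of patterns. Grm5, Grm7, Grm3 and Grm2 had log2 differences between -0.10 and 0.05, whereas Grm4 and Grm8 of group III stood higher on average in Tshr-/- with a wide spread. The median log2 difference of the 6 was 0.01, beside -0.01 over all tested genes, with 3 of 6 receptors positive, where 46.7% of all tested genes were.

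**Figure D1:**
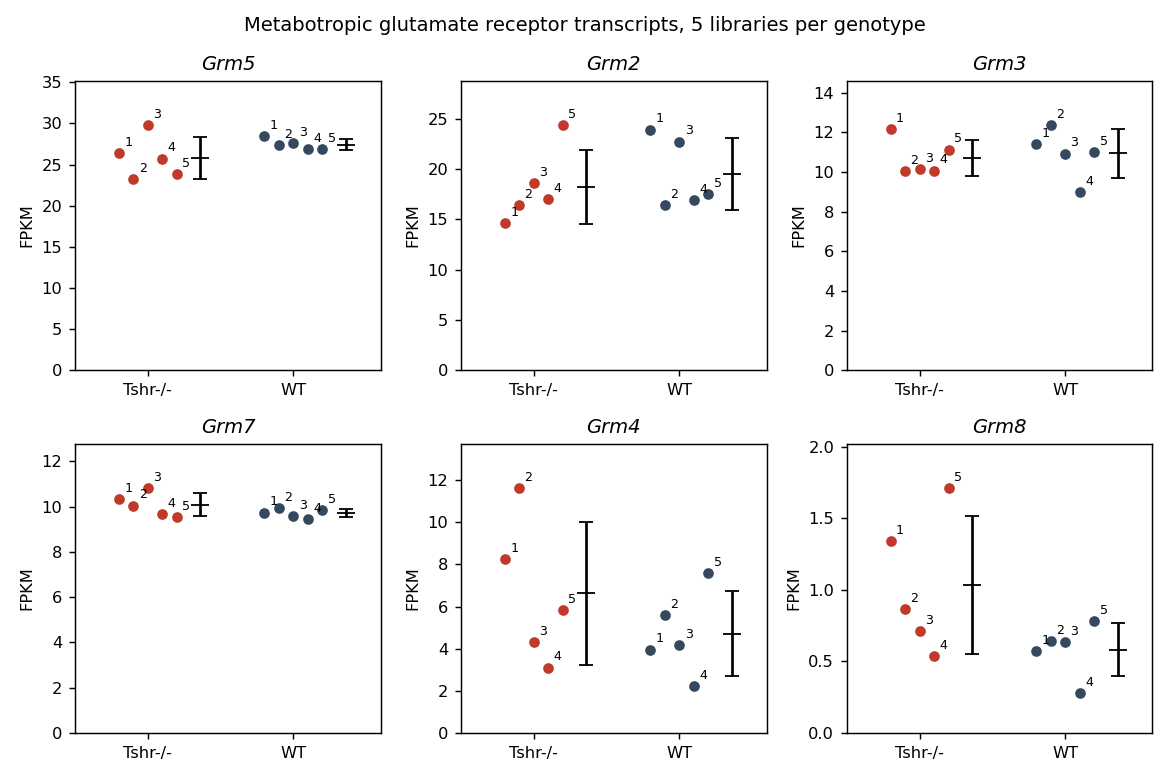
FPKM of each receptor gene in the 5 Tshr-/- libraries and the 5 WT libraries, with the mean and SD to the right of each group. Each point is 1 library, labelled with its replicate number, which was not taken to pair the genotypes. The vertical axes start at 0 and differ between panels, and the libraries of the genotypes overlap for all 6 genes.

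The genes are spread over 5 chromosomes and differ in size. Coordinates are those of the deposited table, on mm10. Grm5 (ENSMUSG00000049583) lies on chromosome 7, 87584168 to 88134907, on the plus strand. Grm2 (ENSMUSG00000023192) lies on chromosome 9, 106643095 to 106656082, on the minus strand. Grm3 (ENSMUSG00000003974) lies on chromosome 5, 9485541 to 9725170, on the minus strand. Chromosome 6 carries Grm7 (ENSMUSG00000056755, 110645581 to 111567230, plus strand) and Grm8 (ENSMUSG00000024211, 27275119 to 28135178, minus strand). Grm4 (ENSMUSG00000063239) lies on chromosome 17, 27422387 to 27513341, on the minus strand. Grm2 is compact at 13.0 kb, with 37.7% of its span counted as gene length, while Grm7 and Grm8 span 921.6 and 860.1 kb, of which 0.639% and 1.15% was counted. The library kit named in the labels does not mark strand. Within the 470 exonic bases shared by Grm2 and the antisense record Gm28111, strand thus cannot tell the reads of these genes apart. The same holds for the 130 exonic bases shared by Grm7 and the antisense record Gm20387. Mean levels of Gm28111 and Gm20387 were 0.0548 and 0.860 FPKM. The microRNA record Mir592 shares 96 exonic bases with Grm8 on the same strand and had a mean of 0 FPKM.

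The upstream sequences of Grm8, the receptor with the largest difference, and Grm7, the receptor with the narrowest spread between libraries, are printed for comparison. Each is 200 bases that end 50 bases before a RefSeq start site on build GRCm38.p6, 5′ to 3′ on the strand of the gene, with CG dinucleotides in capitals. The Grm8 stretch is chr6:28135197-28135396 on the minus strand and the Grm7 stretch is chr6:110645348-110645547 on the plus strand.
Grm8: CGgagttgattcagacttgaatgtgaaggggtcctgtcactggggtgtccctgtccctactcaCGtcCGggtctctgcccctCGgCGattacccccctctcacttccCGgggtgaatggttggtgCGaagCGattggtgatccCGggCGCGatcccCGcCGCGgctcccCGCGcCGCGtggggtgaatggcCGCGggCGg
Grm7: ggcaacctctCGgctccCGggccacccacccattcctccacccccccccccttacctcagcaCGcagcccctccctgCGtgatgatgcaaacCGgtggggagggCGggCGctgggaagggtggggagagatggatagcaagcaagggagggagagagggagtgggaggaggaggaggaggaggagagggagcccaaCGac
The Grm8 stretch holds 21 CG dinucleotides and the Grm7 stretch 8, where the median of 32851 mouse windows of the same length is 4. Of these windows, 91.6% hold fewer than Grm8 and 65.0% fewer than Grm7. The stretches of Grm2 and Grm3 hold 10 and 3. No such window was at hand for Grm4 and Grm5. Grm8 had 3 windows and Grm7 had 2, of which only the nearest to the gene start in the deposited table was used. The GC content of the Grm8, Grm7, Grm2 and Grm3 stretches is 67.0%, 68.0%, 69.0% and 58.5%, beside a median of 51.5%. The 4 stretches were also searched on both strands for AGGTCA, the core motif of thyroid hormone receptor binding, for its spaced repeat AGGTCANNNNAGGTCA and for TGACGTCA, the cyclic AMP response element. None of these motifs occurs in them, and 11.4%, 0.01% and 0.83% of all windows hold them; every match of the repeat also matches the single motif. Which proteins bind these regions was not measured.

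Rebuilt reads (read numbers recovered from FPKM and gene length) came to between 25744854 and 28332278 per library in Tshr-/- and between 23899650 and 33529811 in WT. The targeted gene was near the detection limit, with 0, 0, 0, 5 and 2 Tshr reads in Tshr-/- libraries 1 to 5 and 9, 12, 7, 2 and 2 in WT libraries 1 to 5. The deleted part is not stated, so reads from elsewhere in the gene check nothing. All 12 dentate granule and all 8 CA1 pyramidal neuron markers were detected and tested. Libraries differed in transcripts typical of tissue next to the hippocampus. Summed over 15 thalamus and habenula markers, FPKM spanned 48.4 to 287 for Tshr-/- and 28.0 to 145 for WT, highest in Tshr-/- libraries 2 and 1 and WT libraries 5 and 2. The 14 choroid plexus markers summed to 2287 FPKM in Tshr-/- library 4 and to 5.34 to 91.9 FPKM elsewhere. The 12 dentate granule markers summed to 117 to 157 FPKM in Tshr-/- and to 168 to 223 FPKM in WT, without overlap. Their mean, used below as a covariate, was thus tied to genotype, and such fits cannot cleanly tell the markers and genotype apart. No marker was at 0 in all libraries. In bulk tissue, fewer cells of a type and less RNA per cell cannot be told apart.

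By level per length, the receptors stood in the same order in both genotypes, from Grm5 through Grm2, Grm3, Grm7 and Grm4 to Grm8. Grm5 made up 35.7% ± 3.93 of the summed FPKM of the 6 genes in Tshr-/- and 37.8% ± 2.18 in WT (SD, n = 5 each). Group II made up 39.9% ± 4.07 and 41.7% ± 3.00, and group III 24.4% ± 4.65 and 20.6% ± 2.85, in Tshr-/- and WT. The sum itself was 72.5 ± 3.89 FPKM in Tshr-/- and 72.9 ± 5.07 FPKM in WT. Not every neighbour in the order was distinct. Grm5 exceeded Grm2 in 9 of 10 libraries, Grm3 exceeded Grm7 in 8 of 10 and Grm7 exceeded Grm4 in 9 of 10, and the ranges of each of these pairs overlapped over the 10 libraries. Grm2 exceeded Grm3, and Grm4 exceeded Grm8, in 10 of 10 libraries with no overlap of their ranges.

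Grm5, the only group I receptor described here, was the most abundant of the 6. Its levels in Tshr-/- libraries 1 to 5 were 26.4, 23.2, 29.8, 25.7 and 23.9 FPKM. WT libraries 1 to 5 had 28.4, 27.4, 27.6, 26.8 and 26.9 FPKM. Tshr-/- libraries were thus more scattered, with the highest and the lowest value of all 10, and 4 of 5 lay below the WT median. The means were 25.8 ± 2.58 FPKM in Tshr-/- and 27.4 ± 0.641 FPKM in WT (SD, n = 5 each), and the log2(FPKM + 0.1) difference was -0.09 with a 95% confidence interval from -0.24 to 0.05 (limma adjusted p = 0.564). That interval spans 0.849 to 1.04 times the WT level. Grm5 rested on 6491 to 9438 rebuilt reads per library, and counting error alone is at most 1.24% of a value.

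Grm2, the autoreceptor of mossy fibre terminals, had 14.7, 16.4, 18.6, 17.1 and 24.4 FPKM in Tshr-/- libraries 1 to 5, against 23.9, 16.4, 22.8, 16.9 and 17.6 FPKM in WT libraries 1 to 5. In each genotype some libraries stood apart above the rest, namely Tshr-/- library 5 and WT libraries 1 and 3, at 22.8 FPKM or more, whereas the other 7 lay at or below 18.6 FPKM. The same 3 libraries had the 3 highest means of 6 neocortex markers, at 0.40, 0.13 and 0.14 on the log2 scale relative to the mean of all libraries. Grm2 averaged 18.2 ± 3.72 FPKM in Tshr-/- and 19.5 ± 3.55 FPKM in WT (SD, n = 5 each), a log2 difference of -0.10 with a 95% confidence interval from -0.43 to 0.23 (limma adjusted p = 0.808). With the mean of the dentate granule markers as a covariate the log2 difference was 0.04, with that of the thalamus and habenula markers 0.00, and with that of the neocortex markers, chosen after seeing the data, -0.06. Without Tshr-/- library 5 it was -0.21, and without WT library 1 it was -0.02.

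Grm3, the group II receptor shared by neurons and astrocytes, had 12.1, 10.05, 10.1, 10.1 and 11.1 FPKM in Tshr-/- libraries 1 to 5. WT libraries 1 to 5 had 11.4, 12.4, 10.9, 8.97 and 11.0 FPKM, so that the lowest and the highest value were both WT. Means were 10.7 ± 0.924 FPKM in Tshr-/- and 10.9 ± 1.23 FPKM in WT (SD, n = 5 each). The log2 difference was -0.03, with a 95% confidence interval from -0.22 to 0.17 (limma adjusted p = 0.924). The 10 astrocyte markers summed to 432 to 481 FPKM in Tshr-/- and 450 to 515 FPKM in WT, which also overlap.

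Grm7, the group III receptor of the active zone, was the steadiest of the 6. It had 10.3, 10.05, 10.8, 9.66 and 9.55 FPKM in Tshr-/- libraries 1 to 5, against 9.73, 9.94, 9.59, 9.45 and 9.85 FPKM in WT libraries 1 to 5. The highest library exceeded the lowest by a factor of 1.15 over all 10, and the spread within genotypes was smaller than that of all but 2.40% of tested genes. Means were 10.1 ± 0.519 FPKM in Tshr-/- and 9.71 ± 0.195 FPKM in WT (SD, n = 5 each). The log2 difference of 0.05 had a 95% confidence interval from -0.05 to 0.16 (limma adjusted p = 0.667), or 0.964 to 1.11 times the WT level.

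Grm4, a group III receptor best known from cerebellar granule cell terminals, varied most between libraries of a genotype on the log2 scale. It had 8.25, 11.6, 4.30, 3.10 and 5.84 FPKM in Tshr-/- libraries 1 to 5, against 3.96, 5.60, 4.17, 2.21 and 7.60 FPKM in WT libraries 1 to 5. The genotypes overlapped widely, with Tshr-/- libraries 1 and 2 above all WT libraries and Tshr-/- library 4 below 4 of the 5 WT libraries. Means were 6.63 ± 3.40 FPKM in Tshr-/- and 4.71 ± 2.01 FPKM in WT (SD, n = 5 each). The log2 difference of 0.44 had a 95% confidence interval from -0.39 to 1.28 (limma adjusted p = 0.646). Tshr-/- libraries 2 and 1 and WT library 5, the 3 libraries highest in Grm4, were in the same order the 3 highest in the thalamus and habenula marker mean, at 2.09, 1.14 and 0.94 above the mean of all libraries on the log2 scale. WT library 4 was lowest in both. With that marker mean as a covariate the log2 difference of Grm4 was 0.03 (limma adjusted p = 0.969), and without the 4 libraries high in thalamic transcripts, Tshr-/- libraries 1 and 2 and WT libraries 2 and 5, it was 0.35 (limma adjusted p = 0.744). All 14 thalamus and habenula markers tested had positive log2 differences and 0 were called. With the dentate granule marker mean as a covariate the log2 difference was -0.80 (limma adjusted p = 0.558), and without Tshr-/- library 2 or WT library 4 it was 0.21.

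Grm8, a group III receptor with high affinity for glutamate, was the lowest of the 6 and had the largest difference. It had 1.34, 0.865, 0.7101, 0.536 and 1.71 FPKM in Tshr-/- libraries 1 to 5. WT libraries 1 to 5 had 0.574, 0.640, 0.634, 0.277 and 0.779 FPKM. Tshr-/- libraries 1, 2 and 5 lay above every WT library, and Tshr-/- library 4 lay below 4 of the 5 WT libraries. Means were 1.03 ± 0.483 FPKM in Tshr-/- and 0.581 ± 0.186 FPKM in WT (SD, n = 5 each), a ratio of 1.78. The log2(FPKM + 0.1) difference of 0.68 had a 95% confidence interval from -0.01 to 1.38 (limma adjusted p = 0.390, unadjusted p = 0.0540), which ranked 2143 among the p-values of all tested genes. With a pseudocount of 1 the log2 difference was 0.34. Grm8 rested on 142 to 469 rebuilt reads per library in Tshr-/- and 68 to 213 in WT, where counting error is 12.1% of the value at the lowest number. Tshr-/- library 5, highest in Grm8, was also highest in the neocortex marker mean, at 0.40, and the lowest library in that mean within each genotype, library 4 in both, was the lowest in Grm8. With the neocortex marker mean as a covariate, chosen after seeing the data, the log2 difference was 0.79 (limma adjusted p = 0.140). With the dentate granule marker mean it was -0.22 (limma adjusted p = 0.907). With the thalamus and habenula marker mean it was 0.56 (limma adjusted p = 0.543). With the choroid plexus marker mean, highest in Tshr-/- library 4, it was 0.86 (limma adjusted p = 0.350).

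**Figure D2:**
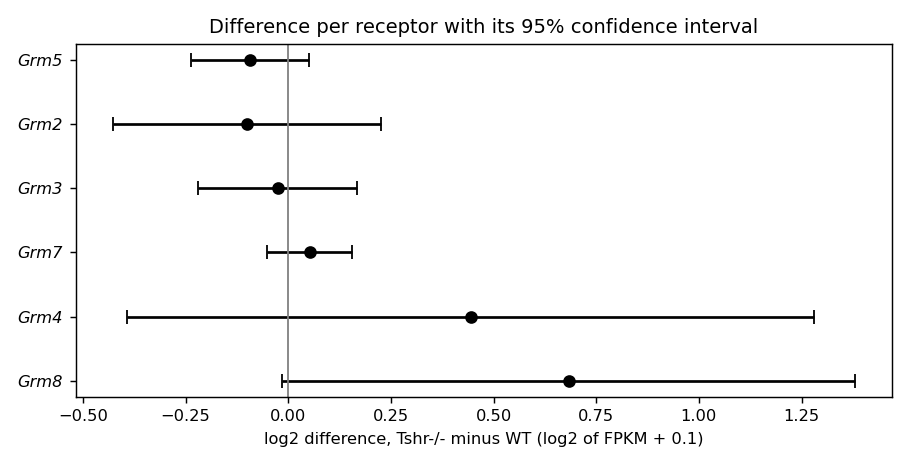
Log2 difference of each receptor, Tshr-/- minus WT, on the log2(FPKM + 0.1) scale (point), with its 95% confidence interval from limma (bar). All 6 intervals include 0, and those of Grm4 and Grm8 are the widest, from -0.39 to 1.28 and from -0.01 to 1.38.

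**Figure D3:**
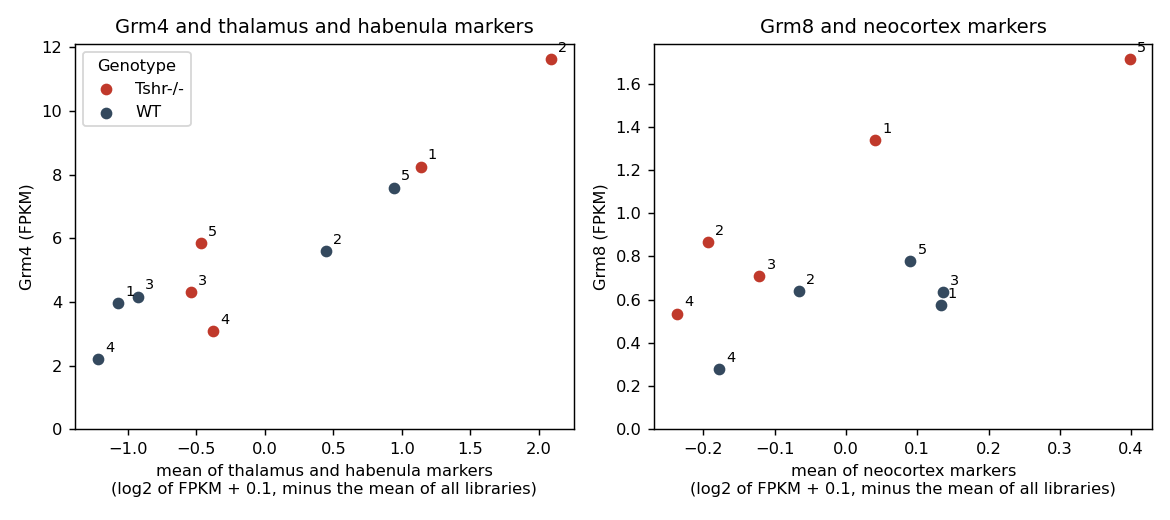
Left, Grm4 in FPKM against the mean of the thalamus and habenula markers per library; right, Grm8 in FPKM against the mean of the neocortex markers (marker means on the log2 scale relative to the mean of all libraries; numbers are replicates). Tshr-/- library 2 is highest on both axes on the left, at 11.6 FPKM, and Tshr-/- library 5 on the right, at 1.71 FPKM. The neocortex markers were chosen as a covariate after seeing the data.

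How the receptors varied together was described over the 10 libraries, with values centred within each genotype. The libraries differ in depth and in transcripts typical of neighbouring tissue, and such differences can bear on many genes of a library at once. The coefficients are descriptions with no test. Among the 15 pairs the highest Pearson r was 0.77 for Grm3 and Grm8, followed by 0.72 for Grm5 and Grm7 and 0.68 for Grm4 and Grm8. Across lists of markers, Grm4 had an r of 0.89 with the thalamus and habenula mean and -0.84 with the dentate granule mean. Grm8 had an r of 0.85 with the neocortex mean, 0.76 with that of interneurons, -0.78 with the dentate granule mean and -0.72 with that of CA3 and CA2 neurons. Likeness by the same measure was greatest between Grm4 and Map7d2 (0.98), Slc17a6 (0.98) and Relt (0.98). Slc17a6, the vesicular glutamate transporter typical of thalamic neurons, had 12.1 ± 13.2 FPKM in Tshr-/- and 6.23 ± 5.16 FPKM in WT (SD, n = 5 each). For Grm8 the most alike were Car10, Tceal9 and Cobl (0.98, 0.97 and 0.97), and for Grm2 Wrnip1, Tpgs1 and Taok2 (0.99 each). For Grm3 they were Pes1, Cmc2 and Tbca (0.95, 0.94 and 0.94), for Grm5 Mrps2, Ripor2 and Ak4 (0.96, 0.95 and 0.93) and for Grm7 Atg2b, Hspa12a and Dnajc18 (0.96, 0.92 and 0.91). These are the highest values among all tested protein-coding genes, where high values arise readily over 10 libraries.

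The genes through which the receptors act, and those that place or feed them, were counted in the same fit. None of the 113 list entries tested passed the threshold. Of the 18 genes of the Gq and phospholipase C arm used by Grm5, 14 had negative log2 differences, with a median of -0.13. Itpr1, the inositol trisphosphate receptor that releases stored calcium, had 23.5, 19.4, 22.4, 18.2 and 22.3 FPKM in Tshr-/- libraries 1 to 5, against 27.4, 26.8, 28.0, 28.5 and 28.3 FPKM in WT libraries 1 to 5. The genotypes did not overlap, which was so for 1.76% of all tested genes in this direction. Its log2 difference was -0.40 (limma adjusted p = 0.0842). Dagla, which makes the endocannabinoid released on group I receptor activation, had 39.7 ± 7.04 FPKM in Tshr-/- and 52.0 ± 6.92 FPKM in WT (SD, n = 5 each, limma adjusted p = 0.264). Gnaq, the alpha subunit of Gq, had 45.9 ± 3.09 FPKM in Tshr-/- and 51.4 ± 2.29 FPKM in WT (limma adjusted p = 0.269). With the dentate granule marker mean as a covariate the log2 differences of Dagla, Gnaq and Itpr1 were -0.01, -0.03 and -0.50. Without it they were -0.39, -0.17 and -0.40. That mean was itself lower on average in Tshr-/-, so such a fit cannot cleanly separate it from genotype. The cause of these shifts was not tested. At an unadjusted p below 0.05, 4 of the 18 genes of this arm were lower in Tshr-/- and 0 higher, beside 8.38% and 4.65% of all tested genes.

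Of the scaffolds and binding partners of the receptors, 16 of 18 had negative log2 differences, with a median of -0.13, where 53.3% of all tested genes were negative. At an unadjusted p below 0.05, 8 of the 18 were lower in Tshr-/- and 0 higher, beside 8.38% and 4.65% of all tested genes. Homer1, whose long forms tie Grm5 to the inositol trisphosphate receptor and whose short form is induced by activity, had 10.9, 7.80, 11.0, 8.78 and 9.74 FPKM in Tshr-/- libraries 1 to 5, against 14.5, 11.0, 12.9, 13.7 and 13.3 FPKM in WT libraries 1 to 5. The highest Tshr-/- library lay just under the lowest WT library, and the log2 difference was -0.44 (limma adjusted p = 0.175). Gene-level values do not separate the long from the short form. Grasp, also called tamalin, which binds the tail of group I receptors, likewise did not overlap between genotypes, at 26.3 ± 2.94 FPKM in Tshr-/- and 38.0 ± 5.31 FPKM in WT (SD, n = 5 each, limma adjusted p = 0.136). Shank3, which links Homer to the postsynaptic density, had 57.9 ± 3.43 FPKM in Tshr-/- and 72.3 ± 7.48 FPKM in WT (limma adjusted p = 0.176). The dentate granule and CA1 markers were negative for 12 of 12 and 7 of 8 genes. Whether this is related to the lower scaffold levels was not tested. With the dentate granule marker mean as a covariate the log2 differences were -0.35 for Grasp, -0.38 for Homer1 and -0.16 for Shank3, beside -0.52, -0.44 and -0.31 without it.

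Among 20 genes of the Gi/o arm used by groups II and III, 18 had negative log2 differences, with a median of -0.05. Of the 20, 3 were lower and 0 higher at an unadjusted p below 0.05, beside 8.38% and 4.65% of all tested genes. The lowest p belonged to Kcnj6, a subunit of the potassium channel opened by Gi/o proteins, at 8.36 ± 1.13 FPKM in Tshr-/- and 10.02 ± 0.971 FPKM in WT (SD, n = 5 each, limma adjusted p = 0.301). The adenylyl cyclases Adcy9 and Adcy2 followed, with log2 differences of -0.26 and -0.16. With the dentate granule marker mean as a covariate the log2 differences of Kcnj6, Adcy9 and Adcy2 were 0.04, -0.01 and -0.09. Genes of desensitization had a median of 0.05, with 10 of 16 positive, and 3 were higher and 2 lower at an unadjusted p below 0.05. Grk3, a receptor kinase, had 16.2, 15.5, 14.7, 11.9 and 16.2 FPKM in Tshr-/- libraries 1 to 5, against 12.2, 12.2, 12.6, 12.03 and 12.3 FPKM in WT libraries 1 to 5 (limma adjusted p = 0.225). Tshr-/- library 4 was thus the lowest of all 10 while the other 4 Tshr-/- libraries exceeded each WT library. The log2 difference of Grk3 was 0.27, and 0.05 with the dentate granule marker mean as a covariate. With 1 library left out it lay between 0.24 and 0.35. The highest value came without Tshr-/- library 4 (limma adjusted p = 0.0555), the library highest in choroid plexus markers. The regulator of G protein signalling Rgs20 had a log2 difference of 0.20 and Grk2, a relative of Grk3, one of -0.17.

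Of 19 genes of receptor-driven depression and local translation, 12 were negative, with a median of -0.02. Of the 19, 4 were lower and 0 higher at an unadjusted p below 0.05, beside 8.38% and 4.65% of all tested genes. Arc, which takes part in the removal of AMPA receptors after group I receptor activation, stood far outside the rest, at 28.2 ± 6.44 FPKM in Tshr-/- and 63.1 ± 20.3 FPKM in WT (SD, n = 5 each), a log2 difference of -1.13 (limma adjusted p = 0.130). The genotypes did not overlap in Arc, which was so for 1.76% of all tested genes in this direction. Over the 27 alternatives the log2 difference of Arc lay between -1.29 and -0.82. Arc is also induced by neuronal activity itself. Cyfip2, a partner of the fragile X protein, and Tsc2, a brake on mTOR, had log2 differences of -0.16 and -0.19, and of -0.09 and 0.02 with the dentate granule marker mean as a covariate. Of 17 genes tested for supply and clearance of glutamate and of NAAG, the peptide agonist of Grm3, 8 were positive and 9 negative, and 2 were higher and 3 lower at an unadjusted p below 0.05. Rimklb, an enzyme that makes NAAG, had 7.23, 7.54, 7.69, 6.80 and 7.36 FPKM in Tshr-/- libraries 1 to 5, against 6.27, 6.41, 5.94, 6.74 and 5.96 FPKM in WT libraries 1 to 5. Every Tshr-/- library was above every WT library, which was so for 0.911% of all tested genes, and the log2 difference was 0.22 (limma adjusted p = 0.176). Slc7a11, the exchanger that exports glutamate from astrocytes, had 3.73 ± 0.757 FPKM in Tshr-/- and 2.29 ± 0.488 FPKM in WT, a log2 difference of 0.68 (SD, n = 5 each, limma adjusted p = 0.179). Glul, glutamine synthetase, had 371 ± 21.6 FPKM in Tshr-/- and 431 ± 19.9 FPKM in WT (limma adjusted p = 0.194). The other class C receptors gave 5 tested genes with a median of -0.02 and 0 at an unadjusted p below 0.05. Of these, Gprc5b, Gpr158 and Gprc5c had the smallest p, with log2 differences of -0.16, 0.09 and 0.25.

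**Figure D4:**
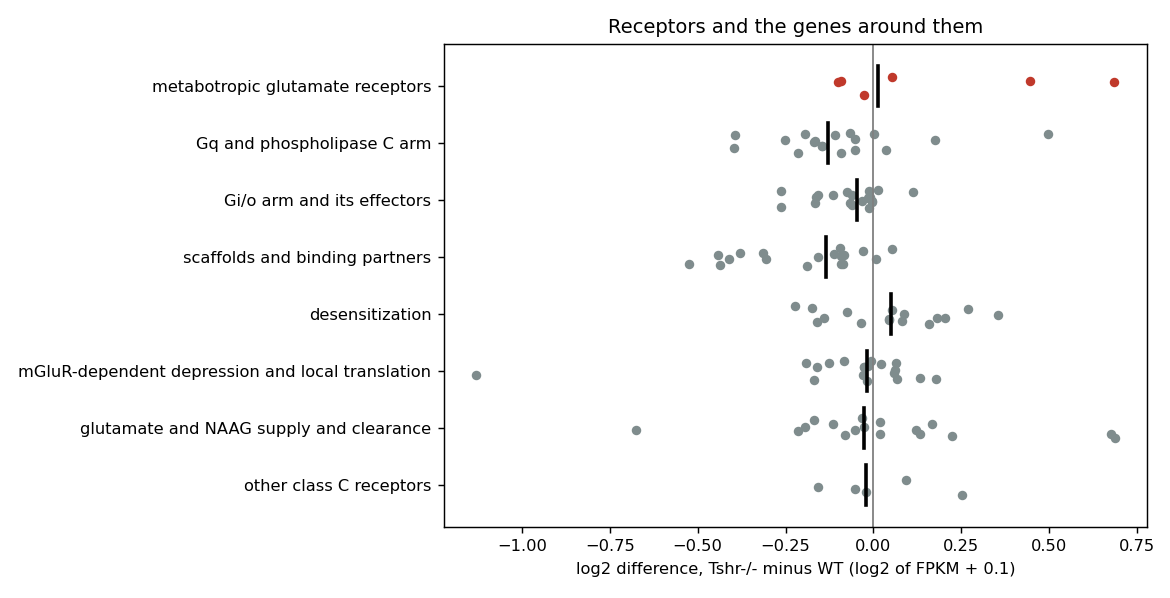
Log2 difference, Tshr-/- minus WT, of each tested gene (points; vertical position within a row is arbitrary) in the receptor family and in 7 lists of genes around it, with the median of each list as a black bar. Medians lie between -0.13 and 0.05, and the lowest point is Arc at -1.13.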

How the data were processed

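Hippocampal messenger RNA in 5 Tshr-/- and 5 WT libraries was read from 1 table of FPKM values deposited by the authors. It also gave gene length, coordinates and type. FPKM are fragments per kilobase of gene length, scaled by a factor per library. In the deposited values that factor differed from the total of rebuilt reads. HISAT2 2.0.5, featureCounts 1.5.0-p3 and build mm10 are named in the submitters' processing notes; the annotation release was not given. Multiplied by gene length, 100% of FPKM values above 0 were whole multiples of the smallest value in their library (tolerance 0.01 of a read), taken here as rebuilt reads; reads without molecular identifiers give counting error only.

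Each gene with a mean of at least 0.5 FPKM was tested on log2(FPKM + 0.1) with limma 3.58.1 in R 4.3.3, as a model of genotype with a mean-variance trend, and p-values were adjusted over 15471 genes. The pseudocount of 0.1 understates changes of low genes. Named genes are the 6 receptors, Tshr, up to 3 genes with the smallest p per list and the 3 genes most alike to each receptor. Markers of 12 cell types or regions were averaged per library. The members and lists were chosen with earlier results of these data known. Alternatives varied the pseudocount, filter, scaling, variance model, covariates and libraries. The alternative with median-ratio scaling returned the main values for all 6 receptors, so it is no separate check. The fit was tested on simulated reads.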

Additional observations from a re-analysis of the deposited data

How the results depend on the processing

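None of the 6 receptors was called under any of the 27 alternatives, in which Grm8 could not be fitted with a filter at 1 FPKM. The lowest adjusted p was 0.140, for Grm8 with the neocortex covariate, which was chosen after seeing the data. The named pathway genes were called in 0 of 566 fits (lowest adjusted p 0.0539). Some signs turned, those of Grm4 and Grm8, the receptors with the largest differences, among them. Grm3 was 0.0104 with quantile normalization, -0.0946 to 0.0198 with 1 library left out, 0.0403 with limma voom on rebuilt reads, 0.0087 with the choroid plexus covariate and 0.0078 without the 4 libraries high in thalamic transcripts. Over the 27 alternatives Grm3 lay between -0.203 and 0.0403. With voom Grm7 was 0.123, beside 0.052 in the main fit. The median log2 difference over all tested genes also moved with voom, from -0.010 to 0.060. Shifts of that size with voom are thus not particular to a receptor. Grm2 was 0.0035 with the thalamus covariate. The dentate granule covariate gave 0.0423 for Grm2, -0.80 for Grm4, 0.0065 for Grm5, -0.22 for Grm8, 0.0429 for Kcnj6 and 0.0162 for Tsc2. The cause was not tested, and this covariate itself ran from -0.43 to 0.09 in Tshr-/- and 0.03 to 0.34 in WT libraries. Over the whole table, 2 calls became 14 with a pseudocount of 0.01, 4 with no filter, 13 with a filter at 1 FPKM, 4 with quantile normalization, 1 with no variance trend, 13 with robust empirical Bayes (statmod 1.5.0), 17 among protein-coding genes, 9 with voom, 5, 4 and 0 with the thalamus, choroid plexus and dentate covariates, 38 with the neocortex covariate, which was chosen after seeing the data, and 0 to 9 with 1 library left out. Same-numbered libraries correlated at r from -0.07 to 0.30 in their deviations from the genotype means, and 2 of 5 Tshr-/- libraries correlated best with the WT library of their own number, so the numbers were not taken as pairs. With the replicate number as a block, 3 genes and 0 receptors were called, and the log2 difference of Grm8 was 0.68 (adjusted p = 0.240). No receptor fell below the filter, so the exact permutation test planned for such a case was not run. With 1 library left out, Grm2 lay between -0.21 and -0.02, Grm4 between 0.21 and 0.67, Grm5 between -0.15 and -0.06, Grm7 between 0.03 and 0.07 and Grm8 between 0.48 and 0.87. At an unadjusted p below 0.05 stood Grm8 with the block, the neocortex covariate, the choroid plexus covariate, voom, protein-coding genes alone, and without Tshr-/- library 3 or 4 or WT library 5, Grm5 without Tshr-/- library 3, Grm7 with voom and Grm4 with the dentate covariate. Rebuilt reads of Grm8 as low as 68 limit its precision.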
